A study of Mus musculus with 11 samples.

Results

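Adipokines are hormones and signalling proteins that fat tissue releases into the blood or to its neighbouring cells. The genes described here are the 9 adipokine genes Lep, Adipoq, Retn, Rbp4, Cfd, Nampt, Apln, Sfrp5 and Nrg4, found by gene name among the 46078 genes counted in epididymal adipose tissue and the 54532 counted in pancreas. All 9 were listed in both tissues. RNA was sequenced from male mice of wild type genotype, labelled C57BL/6 and named C57BL/6J in the study's methods, aged 16 weeks. Control mice ate chow with 10 kcal% fat for 12 weeks and then received 2 saline injections 1 h apart. Mice with obesity-related alcohol-induced acute pancreatitis (OA-AP) ate a high-fat diet with 60 kcal% fat for the same 12 weeks and received 2 intraperitoneal injections of ethanol at 2 g/kg, also 1 h apart. Tissue was taken 12 h after the first injection. There were 3 control and 3 OA-AP libraries of adipose tissue, and 2 control and 3 OA-AP libraries of pancreas. Diet, ethanol and pancreatitis differed together between the groups and cannot be told apart.

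Leptin (Lep) tells the brain how large the fat stores are, and its release grows with fat mass. Adiponectin (Adipoq) improves the response to insulin and is usually lower in the blood in obesity. Both are made almost entirely by fat cells, as is adipsin (Cfd), the complement factor D protease that starts the alternative complement pathway. In the mouse, fat cells also make resistin (Retn), which counters insulin. Retinol-binding protein 4 (Rbp4) carries vitamin A, Nampt makes a precursor of NAD and is also found outside cells, apelin (Apln) widens blood vessels, Sfrp5 binds Wnt5a and keeps it from its receptors, and neuregulin 4 (Nrg4) is an ErbB receptor ligand.

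The libraries held 20825177 to 27928097 counts on genes in adipose tissue and 14188832 to 17238919 in pancreas. Levels are given as CPM, the counts of a gene scaled to a common library size, after each library total was adjusted by edgeR's TMM factor. A gene was called changed at an adjusted p under 0.05 in edgeR's quasi-likelihood test with a fold change of at least 1.5. The adipose libraries carried the markers of their label. The summed level of 20 adipocyte markers was 79998 to 81710 CPM in controls and 57855 to 69641 CPM in OA-AP, with no overlap. Of the 20, 10 were called lower, against 13% of all genes tested. Epididymis and islet markers were each at most 1.16 CPM in sum in every adipose library, while acinar enzymes of the pancreas made up 0.802% of the counts of adipose control 2 and at most 0.00179% of each other adipose library. In whole tissue, fewer cells of a type and less RNA per cell cannot be told apart.

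In adipose tissue, leptin mRNA was higher in the OA-AP mice and adipsin mRNA was lower, and the other 7 adipokine genes were not called. All 9 passed the filter on low counts. With 1 gene upregulated and 1 downregulated among 9, the share called was near the 25.1% of all 15839 genes tested that were called. By direction, 12.1% of all genes were upregulated and 13% downregulated. The median log2 fold change of the 9 genes was −0.11, against −0.01 for all genes. Adiponectin, resistin, retinol-binding protein 4 and Nampt had log2 fold changes between −0.26 and 0.16.

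The sequences before the starts of Lep and Cfd, the called adipokine genes, are shown because members of the C/EBP family of transcription factors, whose levels are given further on, are known to act on the leptin promoter. They are the RefSeq sequences of the GRCm38.p6 build on the plus strand, chr6:29059971-29060220 for Lep and chr10:79890603-79890852 for Cfd, each 250 bases long and ending just before the start that RefSeq gives. Capitals mark the letters TTGCGCAA, of the C/EBP type, the letters TTATAA that hold the TATA motif TATAA on both strands with the 2 matches overlapping, and the GC box GGGCGG.
Lep: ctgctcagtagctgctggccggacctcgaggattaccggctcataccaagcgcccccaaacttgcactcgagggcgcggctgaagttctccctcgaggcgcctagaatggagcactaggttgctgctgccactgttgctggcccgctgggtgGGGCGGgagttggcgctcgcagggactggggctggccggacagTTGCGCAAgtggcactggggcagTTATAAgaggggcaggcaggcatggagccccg
Cfd: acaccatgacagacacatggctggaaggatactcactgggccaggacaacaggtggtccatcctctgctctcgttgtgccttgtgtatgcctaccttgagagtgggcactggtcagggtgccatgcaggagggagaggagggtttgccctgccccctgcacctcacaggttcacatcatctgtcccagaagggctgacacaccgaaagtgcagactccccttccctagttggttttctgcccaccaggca
Both strands were searched for these letters (TTGCGCAA, and TATAA for the TATA motif), for the letters CCAAT of the CCAAT box, and for GGGCGG. In Lep, TTGCGCAA lay 55 to 48 bases before the start, TATAA matched from 32 and from 31 bases before it, and GGGCGG lay 98 to 93 bases before it. The Lep window was the only one of 10 windows of the 9 adipokine genes with TTGCGCAA, which was found in 0.164% of 32851 promoters of the same length. The TATA motif was found in 22.8% of them, the CCAAT box in 33.8% and the GC box in 32.7%. None of the 4 motifs was found in the Cfd window. These matches describe letters in a window of fixed length and were not tested as binding sites. Since C/EBP action on the leptin promoter was known beforehand, the match in Lep and its share of promoters are description only.

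Lep (ENSMUSG00000059201, chr6:29060220-29073877, plus strand of GRCm38) was at 485, 447 and 232 CPM in control replicates 1, 2 and 3, and at 787, 4082 and 1194 CPM in OA-AP replicates 1, 2 and 3. The lowest OA-AP library stood above the highest control library, and OA-AP replicate 2 stood far above the other libraries. The log2 fold change was 2.38 (standard error 0.66, n = 3 against 3, adjusted p = 0.0301 in edgeR's test), a fold of 5.21. Without OA-AP replicate 2 the log2 fold change was 1.36 and the gene was still called (adjusted p = 0.0282 in edgeR's test). The call was lost without control replicate 1 (adjusted p = 0.0702), control replicate 2 (adjusted p = 0.0701) or control replicate 3 (adjusted p = 0.0936), with log2 fold changes of 2.60, 2.51 and 2.14.

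Cfd (ENSMUSG00000061780, chr10:79890853-79892655, plus strand) was the adipokine gene with the highest level in either group. It was at 12736, 10673 and 14036 CPM in the control libraries and at 8798, 2858 and 4469 CPM in the OA-AP libraries, again without overlap. The log2 fold change was −1.22 (standard error 0.40, adjusted p = 0.0489 in edgeR's test), just inside the threshold. Among the OA-AP libraries the order of Cfd, with replicate 1 highest and replicate 2 lowest, was also the order of the summed adipocyte markers, at 69641, 57855 and 65323 CPM in replicates 1, 2 and 3. Among the controls the orders differed. The markers were at 81710, 80260 and 79998 CPM there, lowest in replicate 3, where Cfd was highest. The part of the adipocyte marker level in the change of Cfd was not tested. The call was kept without OA-AP replicate 1 (log2 fold change −1.76, adjusted p = 0.00635) and lost when any of the other 5 libraries was left out. The adjusted p in those 5 fits was 0.110 without control replicate 1, 0.0722 without control replicate 2, 0.128 without control replicate 3, 0.0576 without OA-AP replicate 2 and 0.137 without OA-AP replicate 3.

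**Figure D1:**
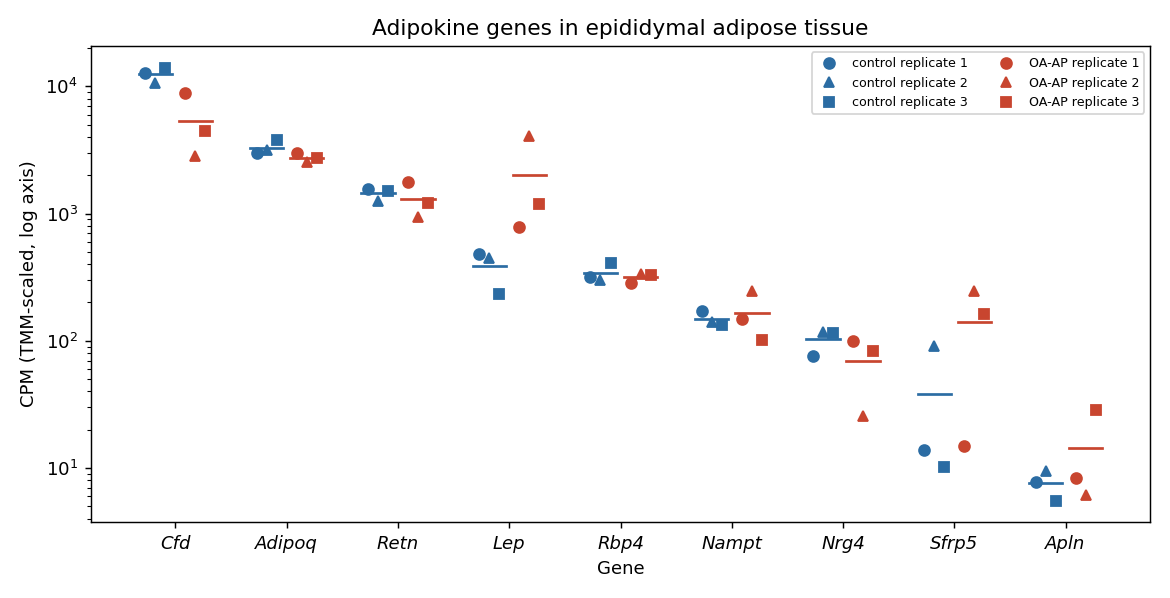
Level of each adipokine gene in the 6 adipose libraries, as TMM-scaled CPM on a log axis; symbols stand for replicates, blue for control and red for OA-AP, and lines for group means. The groups are apart for Lep (232 to 485 CPM against 787 to 4082 CPM) and Cfd (10673 to 14036 CPM against 2858 to 8798 CPM) and overlap for the other 7 genes. The share of all genes whose groups are apart is not given here. Of all 15839 genes tested, 7515 had an unadjusted p under 0.05 in edgeR's test.

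Adipoq (ENSMUSG00000022878, chr16:23146536-23158028, plus strand) was at 2971, 3137 and 3752 CPM in controls and at 2980, 2525 and 2710 CPM in OA-AP. The groups overlapped by a single pair of libraries, control replicate 1 and OA-AP replicate 1, which were nearly equal. The log2 fold change was −0.26 (standard error 0.16, adjusted p = 0.221 in edgeR's test). Retn (ENSMUSG00000012705, chr8:3655770-3660110, plus strand) was at 1569, 1262 and 1492 CPM in controls and at 1754, 942 and 1208 CPM in OA-AP, so that the highest and the lowest library were both OA-AP libraries. Its log2 fold change was −0.15 (standard error 0.24, adjusted p = 0.652). Rbp4 (ENSMUSG00000024990, chr19:38116620-38125321, minus strand) was the steadiest of the 9 genes, at 317, 299 and 410 CPM in controls and at 287, 336 and 328 CPM in OA-AP. The highest library of Rbp4 was 1.43 times the lowest, and the log2 fold change was −0.11 (standard error 0.15, adjusted p = 0.594).

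Nampt (ENSMUSG00000020572, chr12:32819545-32853349, plus strand) was at 172, 141 and 134 CPM in controls and at 149, 248 and 101 CPM in OA-AP. The OA-AP libraries thus held both the highest and the lowest level, and the log2 fold change was 0.16 (standard error 0.31, adjusted p = 0.714). Nrg4 (ENSMUSG00000032311, chr9:55220222-55326844, minus strand) was at 76.0, 117 and 116 CPM in controls and at 100, 25.5 and 83.1 CPM in OA-AP. OA-AP replicate 2 alone was low, and the log2 fold change was −0.56 (standard error 0.47, adjusted p = 0.376). Without that library it was −0.16, and without OA-AP replicate 1 it was −0.91. Exons of Nrg4 overlap exons of Fbxo22 and of the pseudogene Gm15625 on the opposite strand, and since the strand setting of the counting is not given in the sources used here, its counts are uncertain.

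Sfrp5 and Apln varied widely between libraries of the same group. Sfrp5 (ENSMUSG00000018822, chr19:42197971-42202252, minus strand) was at 13.9, 90.8 and 10.2 CPM in controls and at 14.9, 247 and 163 CPM in OA-AP. Each group thus mixed libraries near 10 to 15 CPM with libraries several times higher, and the log2 fold change of 1.89 had a standard error of 1.15 (adjusted p = 0.233). It was 3.57 without control replicate 2 (adjusted p = 0.0647) and 1.22 without OA-AP replicate 2 (adjusted p = 0.570). Apln (ENSMUSG00000037010, chrX:48025146-48034853, minus strand) was at 7.71, 9.53 and 5.55 CPM in controls and at 8.29, 6.15 and 28.5 CPM in OA-AP, with OA-AP replicate 3 alone above the control range. Its log2 fold change was 0.92 (standard error 0.58, adjusted p = 0.252), and −0.07 without that library.

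**Figure D2:**
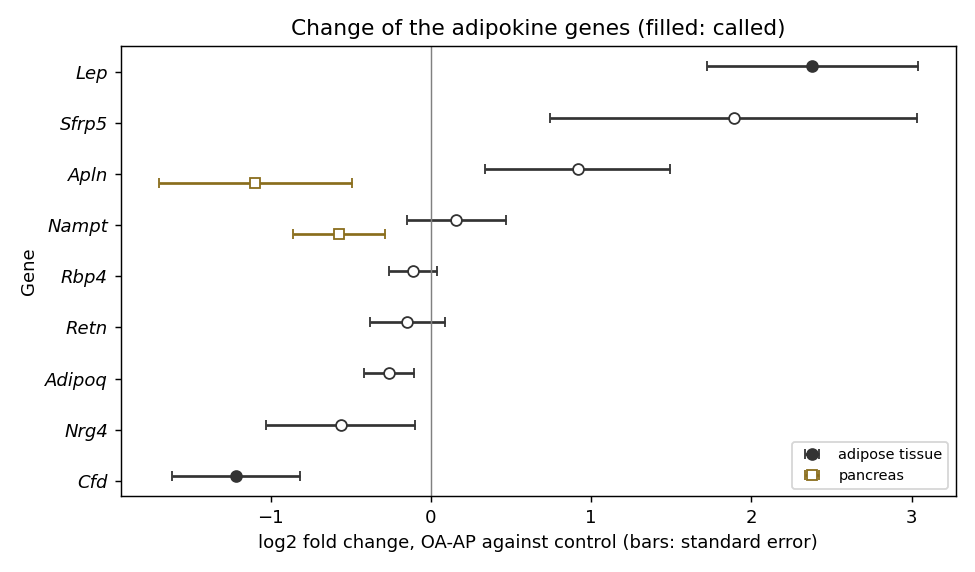
Log2 fold change of each adipokine gene, OA-AP against control, with bars of 1 standard error; circles are adipose tissue, squares pancreas, and filled symbols passed the test. Lep (2.38) and Cfd (−1.22) in adipose tissue are filled, and in pancreas Nampt (−0.57) and Apln (−1.09) are drawn open, the other 7 genes being too low there to be tested.

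Both OA-AP replicate 2 and control replicate 3 stood at an end of the range for most of the genes. OA-AP replicate 2 had the highest of the 6 levels of Lep, Sfrp5 and Nampt and the lowest of Adipoq, Retn, Nrg4 and Cfd, which makes 7 of the 9 genes. Control replicate 3 was at an end for 6 of the 9, and OA-AP replicates 1 and 3 for 2 each. How often each library was at an end over all genes was not counted. The coefficient of variation was 88.9% in OA-AP against 35.2% in controls for Lep, 57.1% against 13.6% for Cfd and 45.1% against 13.5% for Nampt. It was lower in OA-AP than in controls for Adipoq (8.34% against 12.5%), Rbp4 (8.21% against 17.4%) and Sfrp5 (83.0% against 119%). With 3 libraries a group, these differences in spread were not tested.

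Counts of a pair of genes in the same library can be set against each other without any scaling of the library. The ratio of Lep to Adipoq counts was 0.163, 0.143 and 0.0617 in controls and 0.264, 1.62 and 0.440 in OA-AP, so that in OA-AP replicate 2 Lep held more counts than Adipoq. The ratio of Cfd to Adipoq was 4.29, 3.40 and 3.74 in controls and 2.95, 1.13 and 1.65 in OA-AP. Both ratios were without overlap between the groups. The two-sided exact permutation p was 0.1 for each, the smallest that 3 samples against 3 can give, and 0.167 after adjustment over the 5 ratios computed. The ratio of Retn to Adipoq was 0.528, 0.402 and 0.398 in controls and 0.589, 0.373 and 0.446 in OA-AP, and overlapped (exact permutation p = 0.7).

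**Figure D3:**
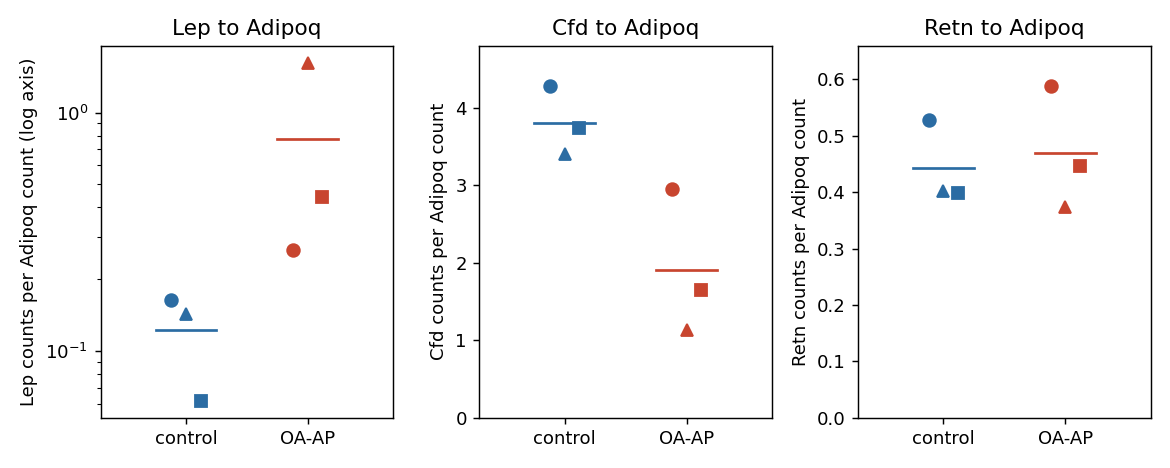
Ratios of Lep, Cfd and Retn counts to Adipoq counts within each adipose library, on a log axis for Lep and on axes from 0 for Cfd and Retn; symbols are replicates and lines group means. The OA-AP libraries lie above all controls for Lep to Adipoq (0.264 to 1.62 against 0.0617 to 0.163) and below all controls for Cfd to Adipoq (1.13 to 2.95 against 3.40 to 4.29).

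Ranked by mean CPM per kilobase of exon, the order of the levels in control adipose tissue was Cfd (13537), Adipoq (2380), Retn (913), Rbp4 (263), Lep (116), Nampt (29.5), Sfrp5 (20.2), Nrg4 (16.9) and Apln (2.41). Nampt, Sfrp5 and Nrg4 had overlapping ranges with their neighbours, and the other steps in the order separated the libraries. In OA-AP tissue Cfd (5830 CPM per kilobase) and Adipoq (1983) were again first and second, while Lep (603) stood between Retn (824) and Rbp4 (244) and overlapped with both. The 9 genes made up 1.69% to 2.12% of all counts in control adipose libraries and 0.974% to 1.38% in OA-AP libraries.

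The genes whose log2 CPM followed Lep most closely over the 6 adipose libraries were Ak3, a mitochondrial adenylate kinase (r = 0.997), and Rasip1, a regulator of endothelial vessel formation (r = 0.993). For Cfd they were the kinase Cdk13 (r = 0.995) and the chromatin factor Meaf6 (r = 0.995). These are the highest of 10017 genes compared, the libraries share the group difference, and 105 genes had an r of at least 0.95 with Lep and 121 with Cfd. Ak3 (log2 fold change 0.45, adjusted p = 0.0612) and Cdk13 (−0.25, adjusted p = 0.0717) were not called in edgeR's test.

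In pancreas the adipokine genes were close to absent. Of the 9, Nampt alone had 20 or more counts in a library, 5 genes reached between 4 and 19 counts, and 3 never passed 3 counts. Nampt, which many cell types use for NAD, was at 9.61 and 6.88 CPM in controls and at 6.04, 6.81 and 3.82 CPM in OA-AP. The OA-AP libraries were all below the control libraries, and the log2 fold change was −0.57 (standard error 0.29), which did not pass (adjusted p = 0.159 in edgeR's test). Apln had 15 and 11 counts in controls and 5, 8 and 18 counts in OA-AP, and its log2 fold change was −1.09 (standard error 0.60, adjusted p = 0.196). Without OA-AP replicate 3 it was called lower (−1.77, adjusted p = 0.0184). These were the adipokine genes that passed the filter, and edgeR called 0 of 2 (0 of 2 also at an unadjusted p under 0.05, and 0 with DESeq2), against 29.8% of all 12884 genes tested in pancreas.

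The sign of the Nampt value in pancreas turned with the scaling. With library totals alone it was 0.14, in a fit in which the median of all pancreas genes moved up by 0.71 on the log2 scale. Acinar enzymes made up 63.9% to 65.8% of the counts in control pancreas and 51.7% to 53.4% in OA-AP pancreas, and their part in the value was not tested.

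The other adipokine genes were counted rarely in pancreas. Lep was counted in OA-AP replicate 2 alone, with 3 counts, and Adipoq had 1 count in control replicate 2 and 1 in OA-AP replicate 1. Retn had 0 counts in all 5 libraries. The limit that a count of 0 allows, 3 counts in a library, was 0.157 to 0.299 CPM. Cfd had 1 and 2 counts in controls and 4, 1 and 1 in OA-AP, Rbp4 8 and 6 against 8, 7 and 2, Nrg4 4 and 3 against 7, 7 and 9, and Sfrp5 8 and 2 against 4, 12 and 3. Set against that limit, Retn was at least 3151-fold higher in the lowest adipose library than in any pancreas library, with the tables of the 2 tissues scaled separately. This limit covers counting error only, as the reads carried no molecular identifiers. The summed adipocyte markers were 243 and 271 CPM in control pancreas and 401 to 542 CPM in OA-AP pancreas, although Adipoq, a gene that defines fat cells, was at or near 0 in both. Of 12 tested there, 4 were upregulated and 2 downregulated (16.2% and 13.5% of all genes). In group means Mgll rose from 44.9 to 138 CPM and Pnpla2 from 18.6 to 130 CPM, while Lpl fell from 84.4 to 25.5 CPM. Plin1 never passed 3 counts in a pancreas library.

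Whether the change differed between the tissues was asked of all 11 libraries together, treated as independent. The sources used here do not say whether adipose and pancreas libraries came from the same mice. The test called 0 of the 9 adipokine genes (0 also at an unadjusted p under 0.05, and 0 with DESeq2), against 21.3% of 17046 genes. It carries information for Nampt and Apln, the 2 that passed the filter in both tissues. The log2 fold change in adipose tissue minus that in pancreas was 0.73 for Nampt (standard error 0.50, adjusted p = 0.340) and 2.00 for Apln (standard error 1.01, adjusted p = 0.193). Without adipose OA-AP replicate 3 the difference for Apln was 0.97 (adjusted p = 0.348).

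Among the receptors and binding partners of the adipokines, listed together with receptors of Wnt5a and ErbB receptors, Cap1 was the gene called in both tissues. In adipose tissue 3 of 13 tested were upregulated and 2 downregulated, against 12.1% and 13% of all genes, with a median log2 fold change of −0.18 against −0.01 for all genes. In pancreas 4 of 13 were upregulated, against 16.2% of all genes, and the other 9 were not called (29.8% of all genes were called in either direction), with a median of 0.77 against 0.04 for all genes. The leptin receptor gene Lepr was low in adipose tissue, at 5.24, 5.25 and 5.41 CPM in controls and 3.27, 5.96 and 3.79 CPM in OA-AP, and was not called (log2 fold change −0.29, standard error 0.24, adjusted p = 0.380). In pancreas Lepr was at 2.23 and 1.595 CPM in controls and at 2.31, 2.06 and 9.36 CPM in OA-AP, where replicate 3 alone was high (1.25, standard error 0.77, adjusted p = 0.255).

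Of the adiponectin receptors, Adipor2 was upregulated in pancreas. It was at 24.97 and 28.7 CPM in control pancreas and at 103, 91.5 and 143 CPM in OA-AP pancreas. All OA-AP libraries were above all controls, and the log2 fold change was 2.07 (standard error 0.22, adjusted p = 0.000517 in edgeR's test). Adipor1 was at 53.0 and 60.02 CPM in controls and 66.9, 71.0 and 74.1 CPM in OA-AP, and was not called (0.32, standard error 0.13, adjusted p = 0.0893). In adipose tissue, Adipor1 had a log2 fold change of 0.06 (adjusted p = 0.665) and Adipor2 of −0.19 (adjusted p = 0.610), and the adiponectin-binding cadherin Cdh13 passed the p threshold at 0.39 (adjusted p = 0.0493) but not that on the fold. The change of Adipor2 in adipose tissue minus that in pancreas was −2.28 (standard error 0.39, adjusted p = 0.00179).

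Of the ErbB receptors, which bind neuregulins, Erbb3 was upregulated in pancreas and Erbb4 downregulated in adipose tissue. Erbb3 was at 19.4 and 16.9 CPM in control pancreas and at 204, 180 and 251 CPM in OA-AP pancreas, far apart (3.54, standard error 0.20, adjusted p = 4.64e-05). In adipose tissue Erbb3 was at 1.99, 2.75 and 4.36 CPM in controls and 2.38, 2.31 and 1.62 CPM in OA-AP (−0.53, adjusted p = 0.241). The difference of its changes between tissues was −4.09 (standard error 0.39, adjusted p = 7.49e-05). Erbb4, the receptor that binds Nrg4, had 56, 19 and 27 counts in control adipose tissue and 6, 3 and 1 counts in OA-AP adipose tissue. It was called lower (−2.88, standard error 0.63, adjusted p = 0.0119), and in pancreas it was too low to be tested.

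Among the proposed receptors of resistin, Tlr4, better known as the sensor of bacterial lipopolysaccharide, was at 21.6, 31.7 and 27.8 CPM in control adipose tissue and at 42.6, 45.8 and 44.7 CPM in OA-AP (0.72, standard error 0.14, adjusted p = 0.00816). Cap1, an actin and adenylyl cyclase binding protein, was higher in OA-AP adipose tissue, at 166 ± 5.48 CPM in controls and 250 ± 17.4 CPM in OA-AP (SD, n = 3; log2 fold change 0.59, adjusted p = 0.00452 in edgeR's test). That value lies at the fold threshold, and the Cap1 call was lost with a slightly different filter (0.58 with a mean CPM of at least 1). With library totals alone Cap1 (0.44) and Tlr4 (0.56) both fell below the fold threshold. The call was also lost without control replicate 3 (0.58) and without OA-AP replicate 3 (0.53). In pancreas Cap1 was upregulated too (0.85, standard error 0.15, adjusted p = 0.00410), and not called without control replicate 2 (0.77, adjusted p = 0.0621).

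Sfrp5 binds Wnt5a, and the receptors of Wnt5a did not move together in adipose tissue. Ror1 was at 6.83, 6.48 and 8.24 CPM in controls and at 19.5, 18.5 and 11.5 CPM in OA-AP (1.20, standard error 0.22, adjusted p = 0.00631), whereas Fzd5 was at 11.7, 10.7 and 11.9 CPM in controls and at 8.60, 7.16 and 5.66 CPM in OA-AP (−0.68, standard error 0.17, adjusted p = 0.0208). Both genes were without overlap between the groups. The Fzd5 call was lost without control replicate 1 (adjusted p = 0.0676), control replicate 3 (0.0758) or OA-AP replicate 3 (0.0552). Ror2 was not called (−0.18, adjusted p = 0.682). Of 12 tested genes of Wnt signalling, 1 was upregulated and 7 were downregulated (12.1% and 13% of all genes), with a median of −0.68. Wnt5a itself was lower, at 29.1 ± 1.92 CPM in controls and 15.5 ± 2.97 CPM in OA-AP (SD, n = 3; −0.90, adjusted p = 0.00419), as were Wnt11 (−1.55) and Wnt5b (−1.25), while the receptor Fzd1 was higher (0.71).

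Of the remaining binding partners, the apelin receptor Aplnr was at 24.6, 14.3 and 14.8 CPM in control adipose tissue and at 23.4, 25.5 and 52.1 CPM in OA-AP, highest in the library that was also highest for Apln. It was not called by edgeR (0.91, standard error 0.36, adjusted p = 0.0920) and was called by DESeq2 (0.92, adjusted p = 0.0253). The vitamin A transporter Stra6, a receptor of Rbp4, was under 1.5 CPM in every adipose library and was not called (−0.76, adjusted p = 0.434). Its relative Stra6l was upregulated in pancreas, at 0.772 and 0.997 CPM in controls and 2.15, 2.29 and 2.04 CPM in OA-AP (1.29, adjusted p = 0.0344), a call that DESeq2 did not make (1.26, adjusted p = 0.0621) and that was lost without control replicate 1 (adjusted p = 0.188), control replicate 2 (0.116), OA-AP replicate 1 (0.0902) or OA-AP replicate 2 (0.0692).

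**Figure D4:**
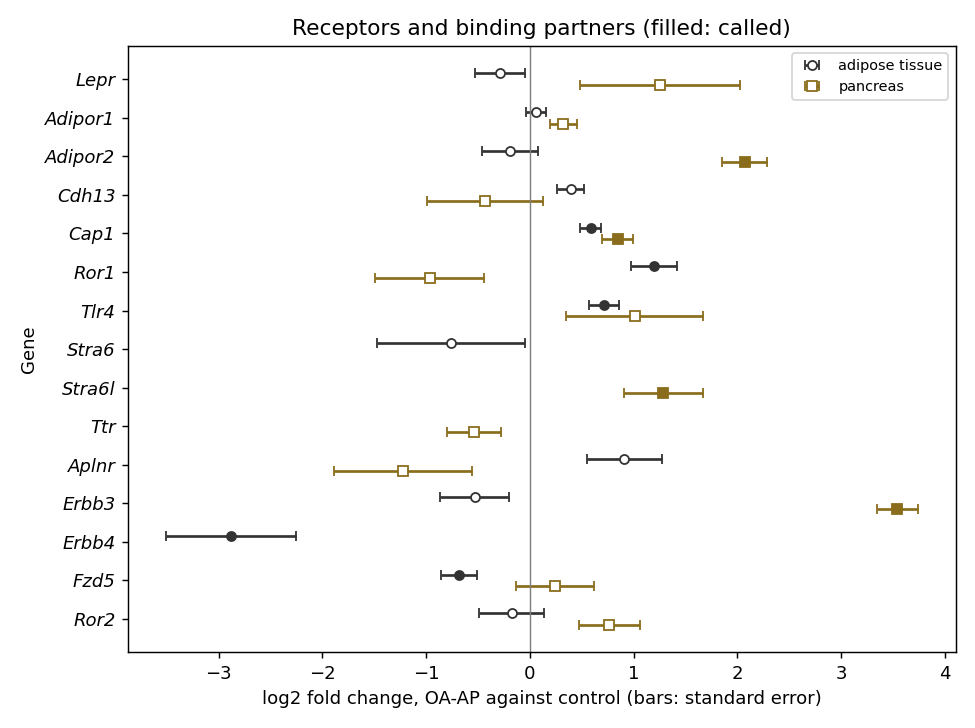
Log2 fold change, OA-AP against control, of adipokine receptors and binding partners and of the Wnt5a and ErbB receptors listed with them. Circles are adipose tissue and squares pancreas, with bars of 1 standard error. Filled symbols passed the test and genes too low to test have no symbol. Adipor2 (2.07) and Erbb3 (3.54) are far to the right in pancreas, and Erbb4 (−2.88) is far to the left in adipose tissue.

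Downstream of the leptin receptor, 5 of 12 genes were upregulated and 1 downregulated in adipose tissue (12.1% and 13% of all genes), with a median of 0.60. Socs3, which shuts off signalling by leptin and by interleukin-6 type cytokines, rose from 12.8 ± 1.604 CPM to 188 ± 31.1 CPM (SD, n = 3; log2 fold change 3.87, adjusted p = 0.000179 in edgeR's test). The phosphatases Ptpn1 (1.34) and Ptpn2 (1.19), which also restrain this pathway, were higher, and the insulin receptor substrate Irs1 was lower (−1.23). In pancreas 7 of 12 were upregulated (16.2% of all genes) and the other 5 not called, with a median of 1.11, among them Stat3 (3.08) and Irs2 (2.48). Of 10 genes that act downstream of adiponectin, 1 was upregulated and 1 downregulated in adipose tissue, near the 12.1% and 13% of all genes. These were the kinase Camkk2 (1.22) and the AMPK subunit Prkaa1 (−0.78), and the median of the 10 was −0.06.

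Genes that fold, trim or assemble secreted adipokines were upregulated in 5 and downregulated in 1 of 12 cases in adipose tissue (median 0.51), where 12.1% of all genes were upregulated and 13% downregulated. They included the lysyl hydroxylases Plod3 (1.00), Plod2 (0.94) and Plod1 (0.74), enzymes of the kind that modifies the collagen-like part of adiponectin, and the protease Furin (0.76). Around Nampt, 3 of 14 genes of NAD metabolism were upregulated and 1 downregulated (median −0.32), a share near the 25.1% of all genes called. Bst1 (2.15) and Cd38 (1.24), which consume NAD, and Nnmt (0.74), which methylates nicotinamide, were higher, and Naprt (−0.60), which makes NAD from nicotinic acid, was lower. The Naprt call was lost without control replicate 1 (adjusted p = 0.0718), control replicate 3 (0.0616) or OA-AP replicate 3 (0.0630).

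Around adipsin, 1 of 12 genes of the alternative complement pathway was upregulated and 1 downregulated (median 0.05), beside 25.1% of all genes called. These were the C5a receptor C5ar1 (1.17) and the complement inhibitor Cd46 (−0.63). The Cd46 call was lost without control replicate 3 (−0.55, adjusted p = 0.0604) or OA-AP replicate 3 (−0.56). Around Rbp4, 3 of 11 genes of retinol handling were upregulated and 3 downregulated (median 0.26; 12.1% and 13% of all genes), with Aldh1a3 (0.89) and Rara (0.76) higher and Rarb (−1.31) lower. In pancreas, 2 of 12 genes of NAD metabolism were upregulated and 3 downregulated, and 1 of 9 complement genes was upregulated and 1 downregulated, beside 29.8% of all genes called there.

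Of the 20 adipocyte markers, 10 were downregulated in OA-AP adipose tissue, against 13% of all genes, and the other 10 were not called, and the median log2 fold change was −0.83, beside −0.26 for Adipoq. The lipoprotein lipase gene Lpl fell from 10592 ± 294 CPM to 5465 ± 316 CPM (SD, n = 3; −0.95, adjusted p = 0.00355), the lipid droplet coat gene Plin1 fell (−1.47), as did the insulin-responsive glucose transporter gene Slc2a4 (−1.44) and Acvr1c (−2.84), a receptor of the activin family. Among 16 regulators of fat cell identity 3 were upregulated and 6 downregulated, against the same 12.1% and 13% of all genes. The C/EBP genes, picked after their values were seen because of the motif before Lep, were called in both directions. Cebpa, at 909, 798 and 874 CPM in controls, was at 379, 248 and 423 CPM in OA-AP (−1.30, standard error 0.20, adjusted p = 0.00369). Cebpb (1.51, adjusted p = 0.000814) and Cebpd (1.99, adjusted p = 0.00907) were higher, and in the latter OA-AP replicate 2 stood apart at 213 CPM, against 81.5 and 91.7 CPM in the other two. Any part of the C/EBP genes in the level of Lep was not tested. Pparg, the master regulator of fat cell formation, was 272 ± 9.79 CPM in controls and 208 ± 8.84 CPM in OA-AP (SD, n = 3), with a log2 fold change of −0.39 that was under the fold threshold.

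Markers of other cells moved as well, to be read beside the 12.1% of all adipose genes upregulated and 13% downregulated. The summed neutrophil markers were 17.7 to 36.4 CPM in control adipose tissue and 188 to 211 CPM in OA-AP, with 6 of 7 upregulated. The 12 macrophage markers overlapped in sum, at 916 to 1205 CPM against 920 to 1468 CPM, with 4 upregulated and 1 downregulated. Stromal markers were 3752 to 4608 CPM against 2467 to 2894 CPM, with 1 of 10 upregulated and 6 downregulated. Lymphocyte markers were 10.7 to 45.1 CPM against 2.38 to 4.80 CPM, with 5 of 7 downregulated. Endothelial markers (1360 to 1502 CPM against 1445 to 2106 CPM) and mesothelial markers (288 to 790 CPM against 169 to 636 CPM) overlapped. The part of these cells in the levels of the adipokine genes was not tested.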

How the data were processed

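RNA was sequenced by the authors as 150 bp paired-end reads from 6 adipose and 5 pancreas samples. Per the labels and the paper's methods, the authors trimmed reads with Trim Galore (version 0.6.6), checked them with fastp (0.20.1), mapped them to GRCm38 (STAR) and assigned them to genes using featureCounts (2.0.1). They deposited whole-number counts per gene, without normalization. The annotation release and the strand setting are not given in the sources used here. Of the 9 adipokine genes, 8 had the same coordinates in GENCODE M21; for Rbp4 the authors' are given.

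Each tissue was tested apart with edgeR 4.0.16 in R 4.3.3 (filterByExpr, TMM factors, robust quasi-likelihood test, Benjamini-Hochberg adjustment over all genes tested), which was tested on simulated data. Calls needed an adjusted p under 0.05 together with a change of 1.5-fold or more, and the tissue by condition test had no fold limit. A standard error is the absolute log2 fold change over the root of F. Log2 CPM for correlations used a prior count of 2 and genes with a mean of at least 3.

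Samples were grouped by their labels. Replicates differed by more than counting noise (lowest chi-square per degree of freedom 7.56), and p-values measure the spread between these samples, which may be partly technical. The members and gene lists were chosen with earlier results of these data known. Named were all adipokine genes and all genes of the list of receptors and binding partners. Up to 4 called genes with the smallest p of each other list, and 2 genes most correlated with each called adipokine gene, were added. Some genes under this rule are not reported here. Alternatives were DESeq2 1.42.0, its size factors, library totals alone, TMM without acinar genes, other filters and folds, a replicate block and each sample left out. Ratios within a library were added after the data were seen.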

Additional observations from a re-analysis of the deposited data

Results flagged for a closer look

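For 3 genes listed with the receptors and binding partners, the log2 fold change (OA-AP against control) differed between adipose tissue and pancreas. They are the adiponectin receptor Adipor2, the Wnt5a receptor Ror1 and the ErbB receptor Erbb3. The tissue by condition test of edgeR was used, with the value in adipose tissue minus that in pancreas given here. The difference was −2.28 for Adipor2 (adjusted p = 0.00179), 2.17 for Ror1 (standard error 0.54, adjusted p = 0.0143) and −4.09 for Erbb3 (adjusted p = 7.49e-05). The call for Ror1 was lost with library totals alone (1.35, adjusted p = 0.0678), with the replicate block (2.15, adjusted p = 0.0533) and without pancreas control replicate 1 (1.18, adjusted p = 0.236). For Ror1 the pancreas values were low, at 2.57 and 0.897 CPM in controls and 0.787, 0.744 and 1.15 CPM in OA-AP, with a log2 fold change of −0.96 (adjusted p = 0.191) that was 0.0022 without control replicate 1.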

How the results depend on the processing

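The direction of Lep and Cfd in adipose tissue held under all 15 alternatives. Their calls held under 8 of the 9 that kept every sample. Among these 9, the other fold thresholds reused the main fit. Under them no direction could turn, and dropping the fold limit could lose no call. Without a filter on low counts both calls were lost, leaving 0 adipokine genes called (adjusted p = 0.148 for Lep and 0.143 for Cfd in edgeR's test). With each sample left out, the adipokine genes called ranged from 0 to 2 in adipose tissue, from 0 to 1 in pancreas and were 0 for the tissue by condition test. All genes called then ranged from 2865 to 4476 in adipose tissue and from 1495 (without control replicate 2; 1687 without control replicate 1) to 4265 in pancreas. With a fold change of at least 2, 2228 genes were called in adipose tissue and 2464 in pancreas. With library totals alone, 6349 were called in pancreas, 92.0% of them higher (54.5% with TMM), and in adipose tissue 32.1% were higher (48.1% with TMM), and the median of all genes moved by −0.15 in adipose tissue, 0.71 in pancreas and −0.82 for the difference between tissues. The sign turned under library totals for Adipor1 in adipose tissue (−0.091), for Nampt (0.14), Cdh13 (0.27) and Ttr (0.16) in pancreas, and for the difference between tissues of Nampt (−0.12) and Cdh13 (−0.0047). With single samples left out, log2 fold changes spanned 0 in adipose tissue for Rbp4 (−0.19 to 0.055), Retn (−0.41 to 0.044), Nampt (−0.25 to 0.42), Apln (−0.067 to 1.29), Adipor2 (−0.37 to 0.026) and Ror2 (−0.33 to 0.070), in pancreas for Ror1 (−1.51 to 0.0022) and Fzd5 (−0.21 to 0.50), and for the difference between tissues of Tlr4 (−0.68 to 0.19). The cause of these changes was not tested. Same-numbered control and OA-AP deviations correlated at −0.0058, 0.056 and −0.16 in adipose tissue. Same-numbered adipose and pancreas deviations correlated at −0.011 and 0.0089 in controls and at −0.012, 0.050 and 0.090 in OA-AP. So few samples a group cannot show whether replicate numbers pair the samples. With the replicate block, 3477 genes were called in adipose tissue, 4099 in pancreas and 2156 in the tissue by condition test, Lep and Cfd stayed called, and Fzd5 in pancreas turned to −0.17. Among receptors the block ended the calls of Cap1 in adipose tissue (0.58) and of the Ror1 difference between tissues (adjusted p = 0.0533), and added those of Aplnr (adjusted p = 0.0469) and Ttr (0.00729) in pancreas and of the Aplnr difference (0.0237). Within a tissue the block joined same-numbered control and OA-AP samples, and between tissues same-numbered samples of a condition. Pancreas had no control replicate 3, so OA-AP replicate 3 dropped out of the change there, and adipose control replicate 3 out of the difference. Leaving OA-AP replicate 3 out gave −0.21 for Fzd5 and −0.85 for Ttr (adjusted p = 0.00205 in edgeR's test) in pancreas. Pairing and the loss of a library cannot be told apart in these fits. In pancreas, depth limits any statement on the 7 adipokine genes that were not tested.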
